A study of Mus musculus with 6 samples.

Results

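Zymogen granules are the secretory granules in which pancreatic acinar cells store digestive enzymes. Measured here were 5 genes for granule membrane, granule content and secreted acinar proteins outside the proteases and lipases, namely Gp2, Sycn, Rnase1, Reg1 and Zg16, of 23337 gene symbols counted. The members were chosen by name with the mutant to control difference of these same libraries known, so their differences between the groups, and the calls they received in the fit over all genes, are given as a description and support nothing. The libraries came from pancreas of NMRI mouse embryos at E13.5. The 3 control pools were from wildtype embryos, and the 3 mutant pools from embryos labelled Prox1-nullyzygous, with the genotype written as Prox1 GFPCre/D. Each pool combined 5 to 6 pancreata of 1 genotype into 1 library, so the spread between embryos was not measured. Prox1 encodes a homeodomain transcription factor of the early pancreas. What the alleles remove of the gene is not stated in the labels. Prox1 stood at 105 ± 1.95 CPM (mean ± SD, n = 3) in control pools against 93.2 ± 10.5 CPM (n = 3) in mutant pools, with overlapping groups, so its level does not check the labels.

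Acinar cells pack enzymes into granules with an acidic, protein-dense content, and the granules fuse with the apical membrane when the gland is stimulated. GP2 is a lipid-anchored glycoprotein of the inner granule membrane, syncollin is a small protein attached to that membrane, and ZG16 is a lectin that links condensed enzymes to it. RNase 1 is the secreted pancreatic ribonuclease, and REG1 is a secreted C-type lectin-like protein first described from pancreatic stones and regenerating islets. In the mouse the acinar programme is switched on in the tips of the branching epithelium in midgestation, with the carboxypeptidase gene Cpa1 among its early genes.

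Each library held from 16060424 to 17633867 counted reads. CPM is the read count scaled to a common library size with TMM factors, and 1 CPM stood for 15.9 to 17.5 reads. The pancreatic identity of the tissue was checked with Cpa1, at 1268 ± 343 CPM in control pools against 1742 ± 292 CPM in mutant pools (SD, n = 3 each), with Ptf1a at 20.3 ± 3.97 and 21.4 ± 2.38 CPM, and with Pdx1 at 50.4 ± 0.910 and 40.7 ± 6.33 CPM. The abundance of acinar transcripts differed between control pools. The 25 digestive enzyme genes counted together reached 4263, 2519 and 6044 CPM in control pools 1 to 3, against 6324, 6316 and 4698 CPM in mutant pools 1 to 3. Control pool 3 and mutant pool 1 had almost no Xist reads, at 0.526 and 0.126 CPM, against at least 2014 CPM in the other pools, so the sex of the embryos differed between pools.

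The upstream sequences of 4 of the members are shown because these genes differed widely in how far they moved between the groups, from Gp2 at one end to Reg1 at the other. Each line holds the 250 bases before the RefSeq start of the gene in GRCm38.p6, read 5′ to 3′ on the gene's strand, and capitals mark every match on either strand to a searched motif. The motifs were the E-box CANNTG and the TC-box TTTCCC, which together make up sites of the acinar factor PTF1, the NR5A motif AAGGTCA, the GATA motif AGATAA and the TATA motif TATAAA. The Reg1 window lies inside the GENCODE span of Reg1, which has a further start upstream. The windows are chr7:119459273-119459522 on the minus strand for Gp2, chr14:51146768-51147017 on the minus strand for Rnase1, chr7:28540635-28540884 on the plus strand for Sycn and chr6:78425733-78425982 on the plus strand for Reg1.
Gp2: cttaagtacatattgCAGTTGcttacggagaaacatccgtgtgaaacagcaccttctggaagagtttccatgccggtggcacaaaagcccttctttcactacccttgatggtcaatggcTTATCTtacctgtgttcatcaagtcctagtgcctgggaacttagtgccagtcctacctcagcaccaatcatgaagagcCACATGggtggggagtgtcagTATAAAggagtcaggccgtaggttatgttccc
Rnase1: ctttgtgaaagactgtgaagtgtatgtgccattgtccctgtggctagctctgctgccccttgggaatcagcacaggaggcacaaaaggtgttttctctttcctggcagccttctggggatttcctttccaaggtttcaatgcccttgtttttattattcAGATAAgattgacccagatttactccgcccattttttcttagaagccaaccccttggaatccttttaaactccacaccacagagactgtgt
Sycn: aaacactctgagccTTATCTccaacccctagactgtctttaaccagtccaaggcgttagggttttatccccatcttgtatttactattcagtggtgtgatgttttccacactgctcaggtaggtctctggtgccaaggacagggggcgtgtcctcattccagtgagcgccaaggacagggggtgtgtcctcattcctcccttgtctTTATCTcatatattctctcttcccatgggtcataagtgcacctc
Reg1: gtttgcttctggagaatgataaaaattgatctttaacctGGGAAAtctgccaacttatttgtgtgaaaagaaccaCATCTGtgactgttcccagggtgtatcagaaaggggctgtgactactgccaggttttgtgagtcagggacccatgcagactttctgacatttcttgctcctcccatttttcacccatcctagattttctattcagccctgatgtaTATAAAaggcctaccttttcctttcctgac

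An E-box was found in the windows of Gp2, at -235 and -53 from the start, and of Reg1, at -175. E-boxes are common, and 66.2% of 32851 mouse promoter windows of this length held at least 1. The TC-box matched in Reg1 only, at -211, and in 21.9% of all windows. The GATA motif matched in Gp2 at -131, in Rnase1 at -91 and in Sycn at -236 and -44, compared with 9.99% of all windows. The TATA motif matched in Gp2 at -32 and in Reg1 at -30, and in 12.4% of all windows. None of the 4 windows held the NR5A motif, which was present in 4.08% of all windows. Matches of this kind describe letters and are not evidence of binding.

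By edgeR with an adjusted p under 0.05, 3 of the 5 members (Gp2, Rnase1 and Sycn) were called higher in mutants, where 3.67% of the 14687 genes tested were called higher and 7.95% were called in either direction. Since the members were chosen with this contrast known, nothing is read from that count. Of the 5, 4 passed the filter on low counts. Gp2, Rnase1 and Sycn reached the required level in 3 libraries only through the mutant pools, and Zg16 did not reach it. For 4 of the 5 members, all but Zg16, every mutant pool lay above every control pool in CPM, as was the case for 13.1% of genes tested.

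**Figure D1:**
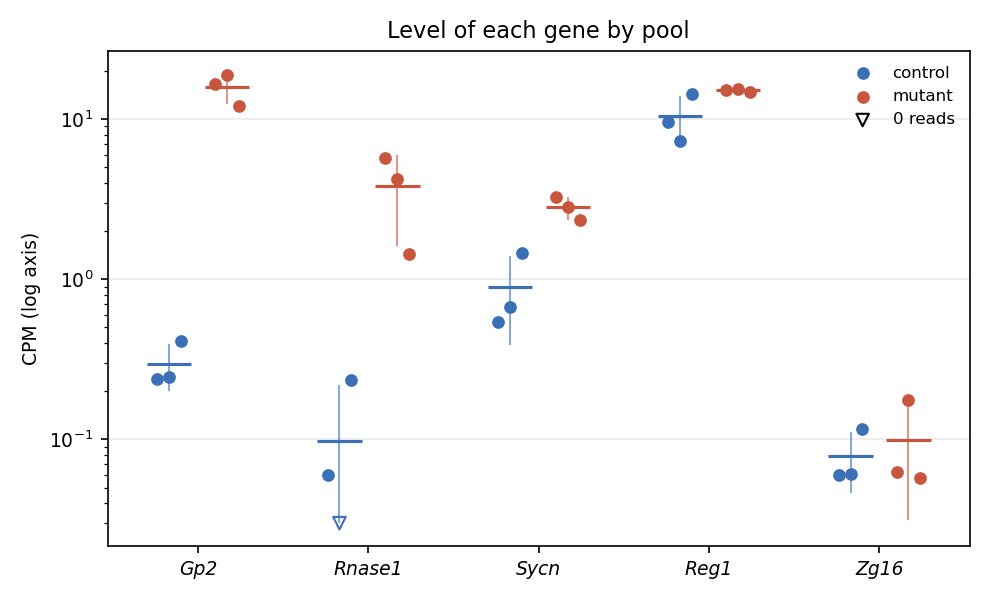
Level of each gene in each pool, in CPM on a log axis. Points are pools, horizontal lines are means and vertical lines are 1 SD (n = 3), drawn down to the axis floor where the lower end is below it, and an open triangle marks 0 reads. Gp2 and Rnase1 were near the limit of detection in control pools and between 1.43 and 18.9 CPM in mutant pools, Sycn was separated by less, Reg1 lay at similar levels in control pool 3 and the mutants, and Zg16 overlapped.

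Gp2 encodes the major glycoprotein of the granule membrane and occupies positions 119442537 to 119459285 of chromosome 7, minus strand (ENSMUSG00000030954.10). Control pools 1 to 3 held 4, 4 and 7 Gp2 reads, and mutant pools 1 to 3 held 263, 321 and 211. The control pools were thus uniformly almost empty of Gp2 and no mutant pool came near them. The means were 0.297 ± 0.0969 CPM for control pools against 15.8 ± 3.47 CPM for mutant pools (SD, n = 3 each), a log2 difference of 5.70 (SE 0.278). The summed reads gave a ratio of 52.9 with an exact 95% interval of 31.9 to 95.002, which covers counting error only. The size of the change is therefore known no better than that range, since 15 control reads carry it. The spread between pools is not part of the interval.

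The neighbour of Gp2 on the same strand is Umod, its paralogue, which encodes uromodulin, the GP2-like glycoprotein of the kidney tubule. Umod ends 3426 bases from the start of Gp2, on its upstream side, at chromosome 7 from 119462711 to 119479282. No Umod read was counted in any control pool, and mutant pools 1 to 3 held 10, 10 and 16. Umod was thus seen only in mutant libraries, at 0.711 ± 0.178 CPM (SD, n = 3), at least 3.97-fold higher than a floor of 3 counts per control library. It did not pass the filter on low counts, and the antisense model Gm44588 of GENCODE overlaps it, so with the strand setting not given its reads cannot be assigned to a strand. On the other side of Gp2, Gpr139, an orphan receptor gene 257934 bases away, had 0 reads in every library.

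Sycn encodes syncollin, which attaches to the inner face of the granule membrane, and occupies positions 28540885 to 28542209 of chromosome 7, plus strand (ENSMUSG00000084174.3). Sycn had 9, 11 and 25 reads in control pools 1 to 3, against 52, 48 and 41 in mutant pools 1 to 3. Control pool 3, the pool with the most digestive enzyme reads among controls, held the highest control value, and the groups did not overlap. The means were 0.889 ± 0.499 CPM (SD, n = 3) and 2.81 ± 0.462 CPM (SD, n = 3), a log2 difference of 1.65 (SE 0.348). Sycn was no longer called without control pool 1 (log2 difference 1.39), without mutant pool 1 (1.53) or without mutant pool 2 (1.64). The GENCODE annotation places Sycn inside Samd4b, a gene for an RNA-binding protein on the opposite strand with 1946 to 2375 reads per library and a log2 difference of 0.04 (SE 0.0744), not called. Reads that overlap both genes may have been dropped or shared, depending on the strand setting.

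Rnase1 encodes the secreted pancreatic ribonuclease, outside the protease and lipase classes, and occupies positions 51144998 to 51146785 of chromosome 14, minus strand (ENSMUSG00000035896.5). Its reads numbered 1, 0 and 4 in control pools 1 to 3 and 91, 72 and 25 in mutant pools 1 to 3. The groups did not overlap, but mutant pool 3 held less Rnase1 than the other mutant pools, at 1.43 CPM against 4.24 and 5.72 CPM. The means were 0.0978 ± 0.121 CPM (SD, n = 3) and 3.80 ± 2.18 CPM (SD, n = 3). The log2 difference was 5.15 (SE 0.776), and 6.65 without control pool 3, which holds 4 of the 5 control reads. With a prior count of 2 in the fit it was 4.16. The ratio of summed reads was 37.5, with an exact 95% interval of 15.8 to 117 for counting error only.

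Reads of the ribonucleases beside Rnase1 on chromosome 14 did not separate the groups. Rnase4 and Ang, which encode secreted ribonucleases of many tissues and share a locus, were the only ones abundant enough to test. Rnase4 had a log2 difference of 0.13 (SE 0.139, edgeR adjusted p = 0.688) and Ang of 0.44 (SE 0.282, edgeR adjusted p = 0.436), with overlapping groups in both cases. Rnase6, a ribonuclease of phagocytes and the nearest gene on one side at 12811 bases, had 4 to 10 reads in control pools and 5 to 21 in mutant pools. Rnase10 and Rnase12 had at most 1 read in any library. Rnase1 is also known from endothelial cells, and the summed level of 10 endothelial markers was 699 to 792 CPM in control pools and 798 to 1002 CPM in mutant pools. Of these markers, 1 was called higher (Vwf, log2 difference 0.64, SE 0.138, edgeR adjusted p = 0.0237) and 9 were not called. Vwf lost its call without control pool 1 (adjusted p = 0.0533) or control pool 3 (0.0755). Their part in the Rnase1 difference was not tested.

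Reg1 encodes a secreted lectin-like protein and was the most abundant member in control pools. The gene occupies positions 78422711 to 78428667 of chromosome 6, plus strand (ENSMUSG00000059654.7). Reg1 reads numbered 160, 120 and 244 in control pools 1 to 3 and 243, 260 and 256 in mutant pools 1 to 3. In CPM control pool 3 came close to the mutant pools, at 14.3 against 14.6 to 15.3, while control pools 1 and 2 were at 9.55 and 7.30. The means were 10.4 ± 3.55 CPM (SD, n = 3) and 15.1 ± 0.377 CPM (SD, n = 3), and the log2 difference of 0.54 (SE 0.203) was not called. Without control pool 3 the difference was 0.83 and Reg1 was called higher. The spread was unequal, with a coefficient of variation of 34.2% over control pools and 2.50% over mutant pools, where read sampling alone gives about 7.57% and 6.29%.

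The other Reg genes were nearly silent. Reg2, the nearest gene on one side of Reg1 at 14605 bases, had 0 reads in 5 libraries and 2 in mutant pool 3, and Reg3g on the other side had 1 to 4 reads. Reg3d and Reg4 had at most 4 reads in any library, and Reg3a and Reg3b were at 0 in all libraries. These genes encode secreted lectin-like proteins, several of them known from inflamed pancreas and gut. Transcripts of the family in these pancreata were therefore almost entirely those of Reg1. Among the remaining paralogues on the list, the GP2-like gene Umodl1 had 1 to 11 reads and the inner ear matrix gene Tecta 7 to 11 reads.

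Zg16 encodes the lectin of the granule matrix, which is also a goblet cell product, and occupies positions 127050156 to 127087328 of chromosome 7, minus strand (ENSMUSG00000049350.6). Control pools 1 to 3 held 1, 1 and 2 Zg16 reads and mutant pools 1 to 3 held 1, 3 and 1. No pool stood out, and at a sum of 4 reads against 5 the exact 95% interval of the ratio ran from 0.269 to 6.29, so a severalfold difference in either direction was not detectable at this depth. Its neighbours Kif22, a kinesin gene, and AI467606 were not called, with log2 differences of -0.00 (SE 0.0415) and -0.20 (SE 0.206).

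Levels of different genes were compared per kilobase of annotated exon. In control pools Reg1 stood at 11.5 ± 3.92 CPM per kb, followed by Sycn at 1.60 ± 0.898, Gp2 at 0.149 ± 0.0485, Rnase1 at 0.0986 ± 0.122 and Zg16 at 0.0629 ± 0.0260 CPM per kb (SD, n = 3 each). The ranges of Reg1 and Sycn were separate from each other and from the rest, and Gp2 lay above Zg16 in range, while Rnase1 overlapped both. In mutant pools the order was Reg1 at 16.7 ± 0.417, Gp2 at 7.92 ± 1.74, Sycn at 5.06 ± 0.831, Rnase1 at 3.83 ± 2.20 and Zg16 at 0.0787 ± 0.0536 CPM per kb (SD, n = 3 each). Gp2 thus stood below Sycn in every control pool and above it in every mutant pool, and Sycn and Rnase1 overlapped in mutants. Sycn reads that overlap Samd4b may have been dropped or shared, so the place of Sycn in these orders holds for counted reads only. Every member was far below Cpa1, at 725 ± 196 CPM per kb in controls and 995 ± 167 CPM per kb in mutants (SD, n = 3 each).

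Because the pools differed in their total of acinar transcripts, the members were also set against Cpa1 within each pool, a ratio that needs no library scaling. Bulk libraries cannot tell fewer acinar cells from less RNA per acinar cell, and a ratio shows only unequal change of the pair. Reg1 held 69.3, 82.6 and 92.4 reads per 10000 Cpa1 reads in control pools 1 to 3 and 84.1, 77.0 and 103 in mutant pools 1 to 3. On this scale the Reg1 groups overlapped, with a mutant to control ratio of means of 1.08. Gp2 held 1.73, 2.75 and 2.65 reads per 10000 Cpa1 reads in control pools 1 to 3 and 91.0, 95.04 and 85.0 in mutant pools 1 to 3. Set against Cpa1, Gp2 in the mutant pools came to 90.3 ± 5.07 (SD, n = 3), an even level across the 3 pools.

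Sycn held 3.90, 7.57 and 9.46 reads per 10000 Cpa1 reads in control pools 1 to 3 and 17.99, 14.2 and 16.5 in mutant pools 1 to 3, without overlap and with a ratio of means of 2.33. Rnase1 held 0.433, 0 and 1.51 in control pools and 31.5, 21.3 and 10.1 in mutant pools on the same scale. Unlike Gp2, Rnase1 kept its low value in mutant pool 3 after this step. With the summed digestive enzymes as the base the ratios of means were 37.1 for Gp2, 35.7 for Rnase1, 2.31 for Sycn and 1.06 for Reg1, and again the groups overlapped for Reg1 and Zg16 and not for the other 3 members.

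**Figure D2:**
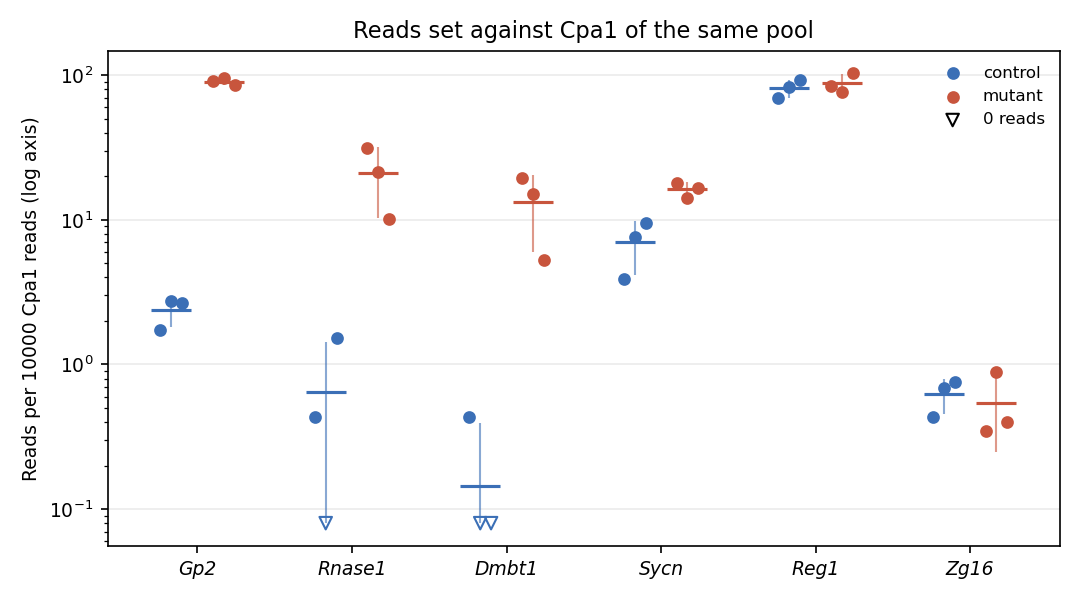
Reads of each gene per 10000 Cpa1 reads of the same pool, on a log axis, for the members and for Dmbt1, another gene of acinar granules. Points are pools, lines are means with 1 SD (n = 3), ending at the axis floor, and open triangles mark 0 reads. Gp2 lay between 85.0 and 95.04 in mutant pools against at most 2.75 in controls, while Reg1 and Zg16 overlapped between the groups.

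The genes with profiles most like each member were found by the root mean square difference in log2 CPM over the 6 libraries, after subtracting each gene's control mean. This likeness uses the same group difference that chose the members. For Gp2 they were Ctrl (0.433), which encodes a chymotrypsin-like protease, Gm5771 (0.767), a protein-coding gene model, and S100g (0.826), which encodes the calcium-binding protein calbindin-D9k. S100g had 0, 1 and 1 reads in control pools 1 to 3, against 54, 47 and 34 in mutant pools 1 to 3. For Rnase1 they were the gene model Gm10334 (0.520), Dmbt1 (0.542) and S100g again (0.598). For Sycn they were Mro (0.244), Car9 (0.246), which encodes a carbonic anhydrase, and Nr1h4 (0.328), which encodes the bile acid receptor FXR. Car9 was more abundant than Sycn, at 17.3 ± 5.44 CPM for control pools against 51.2 ± 1.55 CPM for mutant pools (SD, n = 3 each). For Reg1 they included the collagen gene Col6a5 (0.0940) and the histone demethylase gene Kdm4d (0.122), neither of which was called.

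Other genes of acinar granules and of the acinar secretory pathway were mostly not called. Of 37 listed, 36 were in the files and 29 were tested, of which 1 was called higher, 4 lower and 24 not called by edgeR. Over all 14687 genes tested, 539 (3.67%) were called higher and 628 lower, the counts to set beside each list of this report. The median log2 difference of the 29 was -0.10, against 0.00 over all genes tested. The higher gene was Dmbt1, whose product, also known as muclin, is a glycoprotein of the granule. It had 1, 0 and 0 reads in control pools 1 to 3, against 56, 51 and 13 in mutant pools 1 to 3. Mutant pool 3 was thus low for Dmbt1, as it was for Rnase1. The Dmbt1 ratio of summed reads was 120, with an exact 95% interval of 21.1 to 4771 for counting error only, and without control pool 1 no control read remained and the fit gave 8.34. The fitted log2 difference of 6.47 (SE 1.00, edgeR adjusted p = 0.00554) fell to 4.18 with a prior count of 2. Dmbt1 reached the level required by the filter in 3 libraries only through the mutant pools. So did Ctrl, Prss1, Prss3, Pgc, Elane and Ctsg below, so the calls of these genes are given as a description.

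The 4 genes called lower take part in granule traffic and lipid sulfation. Rab3d, a small GTPase of the zymogen granule membrane, was at 38.7 ± 4.50 CPM for control pools against 23.0 ± 1.36 CPM for mutant pools (SD, n = 3 each), a log2 difference of -0.75 (SE 0.0936, edgeR adjusted p = 0.00208). Syt7, encoding a calcium sensor of exocytosis, changed by -0.62 (SE 0.0600, edgeR adjusted p = 0.000646), and Gal3st1, encoding a sulfotransferase that makes sulfatide, by -0.82 (SE 0.146, edgeR adjusted p = 0.0103). Stxbp2, a syntaxin-binding regulator of apical secretion, changed by -0.22 (SE 0.0519, edgeR adjusted p = 0.0369) and was not called in 5 of the 6 fits that left out 1 library, with adjusted p between 0.0681 and 0.127, nor with the replicate block (0.0748). Rab3d and Syt7 are also expressed in endocrine cells, and values of a granule gene in whole pancreas do not say which cells hold it. Fusion genes such as Vamp8 (log2 difference -0.04, SE 0.0704), Snap23 (0.12, SE 0.0548) and Stx3 (-0.10, SE 0.0866) were not called, nor was Cuzd1, a granule membrane gene with at most 2 reads in any library and not tested.

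**Figure D3:**
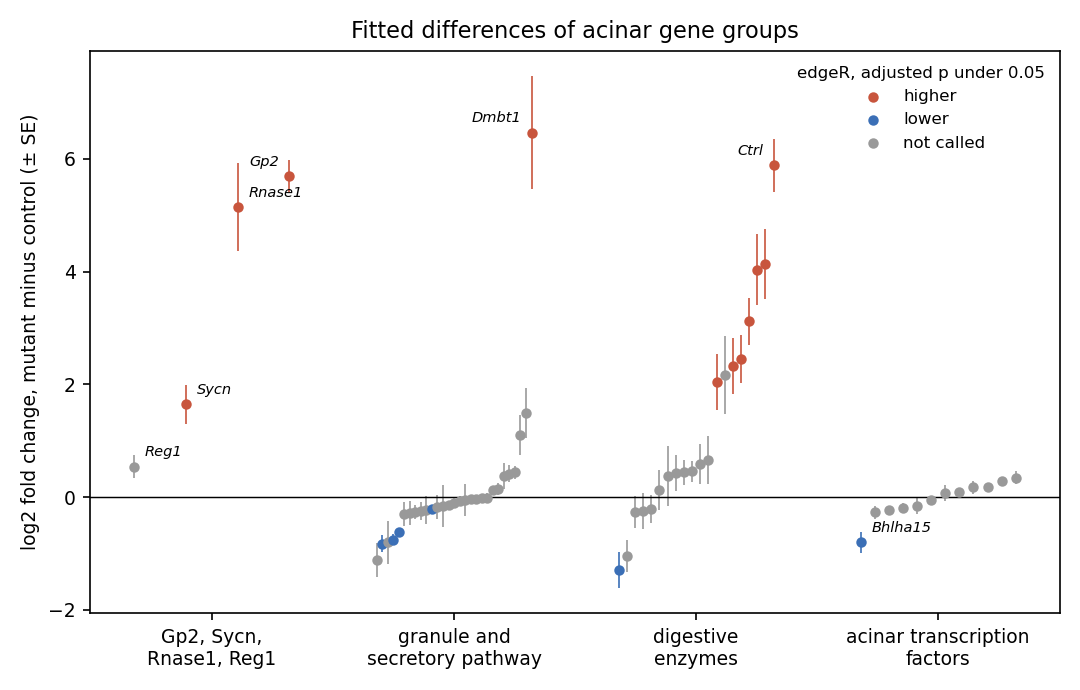
Fitted log2 difference, mutant minus control, with its SE for the 4 members that passed the filter on low counts, 29 granule and secretory pathway genes, 20 digestive enzymes and 12 acinar transcription factors. Colours give the edgeR call. Gp2, Rnase1, Dmbt1 and Ctrl stand above 5, and most secretory pathway and transcription factor genes lie near 0.

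Digestive enzymes are the cargo stored in the same granules. Of 20 tested, 7 were called higher, against 3.67% of all genes tested, 1 lower and 12 not called by edgeR. Their median log2 difference was 0.52 against 0.00 over all genes. With robust estimation 2 were called higher. The called genes with the smallest adjusted p were Ctrl (5.89, SE 0.466), the carboxypeptidase gene Cpb1 (3.12, SE 0.414) and the trypsinogens Prss3 (4.13, SE 0.618) and Prss1 (4.04, SE 0.632), which are uncertain one by one because trypsinogen genes are near-identical. Control pool 3 held most control reads of Cpb1, Prss3 and Prss1, and without it the differences were 3.73 for Cpb1, 7.06 for Prss3 and 6.33 for Prss1. Under robust estimation Prss3 (edgeR adjusted p = 0.0532) and Prss1 (0.0638) were not called. The lower gene was the elastase gene Cela3b (-1.29, SE 0.318), whose call was lost in 5 of the 6 fits without 1 library, the exception being the fit without control pool 2. Cpa1 itself was not called (log2 difference 0.46, SE 0.191, edgeR adjusted p = 0.210). Among the 20 listed enzymes tested, Ctrl alone had a log2 difference near that of Gp2. The gene model Gm5771, which was not on the list, was also near it, at 5.82 (SE 0.582).

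Among 12 acinar transcription factors edgeR called 0 higher and 1 lower, with 3 higher and 3 lower at an unadjusted p under 0.05, and DESeq2 called 2 higher. Over all 14687 genes tested, 3104 had an unadjusted edgeR p under 0.05 in either direction. Of the 12 factors, the gene called lower was Bhlha15, which encodes MIST1, a factor of mature secretory cells, at -0.80 (SE 0.190, edgeR adjusted p = 0.0355). Its call was lost without control pool 1, control pool 3, mutant pool 2 or mutant pool 3, with adjusted p between 0.0922 and 0.120, and with robust estimation (0.114). Of 12 genes of the early pancreatic epithelium, 1 was called higher, the keratin gene Krt19 (0.61, SE 0.0607), and 3 lower, among them the E-cadherin gene Cdh1 (-0.42, SE 0.0745) and the transcription factor gene Nkx6-1 (-0.45, SE 0.108). Nkx6-1 lost its call without control pool 3 or any 1 mutant pool, with edgeR adjusted p between 0.0529 and 0.116.

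Markers of other cell types that may hold these transcripts were counted in the same pools. For intestine and goblet cells, a known source of Zg16, 13 of 14 markers were in the files and their summed level overlapped, at 75.5 to 81.8 CPM in control pools and 66.6 to 95.02 CPM in mutant pools. Most of this sum was Clca1, at 55.7 to 70.2 CPM in control pools and 55.05 to 84.4 CPM in mutant pools, so the sum says little of the other markers. In that list Atoh1 was at 0 in every library, and edgeR called 0 of 5 tested members, with 0 higher and 1 lower at an unadjusted p under 0.05. Of all 14687 genes tested, 3104 had an unadjusted edgeR p under 0.05 in either direction. For stomach, Gkn1, Muc5ac, Tff1 and Gif were at 0 in every library, and the summed level was 57.7 to 75.8 CPM over control pools against 76.2 to 94.6 CPM over mutant pools. Barx1 alone made up 56.7 to 69.6 CPM and 71.8 to 90.3 CPM of these sums, so they describe that gene rather than the list. Of 3 stomach markers tested, 2 were called higher, namely the mesenchymal factor gene Barx1 (0.39, SE 0.0988) and Pgc, which encodes the secreted zymogen pepsinogen C. The other, Sox2, was lower in every mutant pool and not called (log2 difference -2.35, SE 0.875, edgeR adjusted p = 0.155). Its reads numbered 12, 94 and 12 in control pools 1 to 3, against 9, 6 and 8 in mutant pools 1 to 3. Barx1 lost its call without control pool 1, control pool 3, mutant pool 2 or mutant pool 3, with edgeR adjusted p between 0.110 and 0.158, and with total-count scaling (0.0583). Pgc had 7, 3 and 3 reads in control pools 1 to 3, against 60, 65 and 31 in mutant pools 1 to 3, a log2 difference of 3.55 (SE 0.454, edgeR adjusted p = 0.00238).

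Myeloid markers were higher in sum in every mutant pool, at 141 to 202 CPM against 96.2 to 124 CPM in control pools. Of 9 tested, 4 were called higher and 5 not called, where 3.67% of all genes tested were called higher. Those called were the neutrophil granule genes Mpo, Elane, Prtn3 and Ctsg, with log2 differences of 3.59 (SE 0.360), 3.31 (SE 0.376), 2.01 (SE 0.222) and 5.62 (SE 0.848), the last from 2 reads in control pool 2 and none in the other control pools, and 8.28 without that pool. Erythroid markers overlapped in sum, at 1486 to 2351 CPM over control pools against 1703 to 2480 CPM over mutant pools, with 5 of 11 called higher. Hepatocyte markers were lower in sum, at 1305 to 1859 CPM over control pools against 478 to 572 CPM over mutant pools. Of 10 tested, 7 were called lower, where 628 of all 14687 genes tested were. Most of the hepatocyte sum was Serpina6, Ambp and Ttr, at means of 731, 316 and 305 CPM in control pools. In mutant pools these means were 120, 152 and 166 CPM. Alb was at 3.79 CPM in control pools and 0.419 CPM in mutant pools, so the sum mainly describes those more abundant genes. Whether cells carrying any of these markers contributed to the levels of Gp2, Rnase1 or Sycn was not tested.

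**Figure D4:**
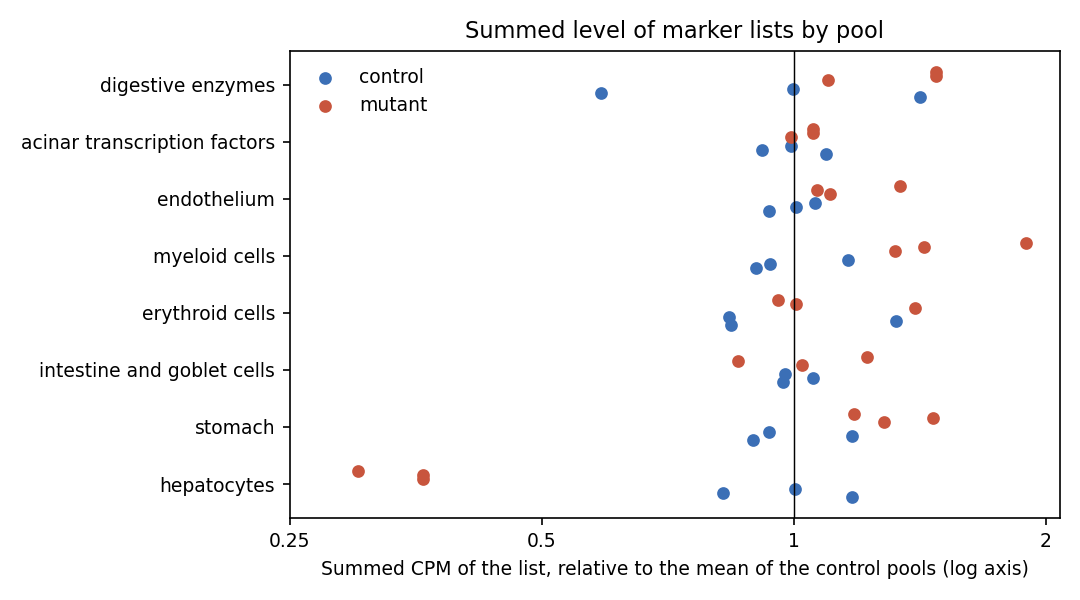
Summed CPM of each marker list in each pool, relative to the mean of the 3 control pools, on a log axis. Points are pools. The summed endothelium, stomach and myeloid lists lie higher and the hepatocyte list lower in every mutant pool. The separation is narrow for endothelium, at 792 CPM in the highest control pool against 798 CPM in the lowest mutant pool. It is also narrow for stomach, at 75.8 against 76.2 CPM. The stomach and intestine sums are mostly Barx1 and Clca1, and the hepatocyte sum is mostly Serpina6, Ambp and Ttr. The digestive enzyme list overlaps between the groups, with control pool 3 above mutant pool 3.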

How the data were processed

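Whole pancreas mRNA was sequenced in 3 control and 3 mutant pools. The deposited files hold unnormalized read counts per gene symbol. Per the submitters' processing notes, cutadapt 1.13, STAR, HTSeq 0.6.1p1, DESeq2 and build mm10 were used, with no role given. How reads were assigned by annotation, strand and multi-mapping is not given in the sources used here. Low genes were removed with filterByExpr (minimum count 10), libraries were scaled by TMM, and genes were tested with the quasi-likelihood F test of edgeR 4.0.16 in R 4.3.3 on genotype alone. P-values were adjusted by Benjamini-Hochberg across 14687 genes and called under 0.05. The SE was derived from the coefficient and its F statistic. Nothing states that pools came from separate litters, so p-values measure the spread between these pools. Counts of replicate pools differed beyond sampling noise. The test was tested on simulated data. Alternatives used other scalings, filters and prior counts, DESeq2 1.42.0, limma 3.58.1 voom, robust estimation, a replicate block and each library left out. Positions and exon lengths are from GENCODE M21 (GRCm38, or mm10), and upstream sequences from RefSeq (GRCm38.p6), which matched 4 of 5 members.

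The members, gene lists and tests were chosen with earlier results of these data known. The genes named were Prox1, the members, their paralogues and neighbours, the 3 genes most like each, and up to 4 called genes per direction of each list. Vamp8, Snap23, Stx3, Cuzd1, Pgc and the marker genes were named after their values were seen. Some genes that this rule names are not reported here.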

Additional observations from a re-analysis of the deposited data

How the results depend on the processing

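The members were chosen on this contrast and Gp2, Rnase1 and Sycn passed the filter through the mutant pools, so their calls under other settings describe these libraries and are no sign of stability. Log2 differences over 16 alternatives ran from 5.26 to 5.99 for Gp2 and from 4.16 to 6.65 for Rnase1, called in each. Sycn was positive in 16 and called in 13, and Reg1 was positive in 16 and called in 2, both of which lacked control pool 3. Of the members, 2 to 4 were called higher in fits without 1 library. All genes called numbered 629 to 1421 without 1 library and 665 without both pools that lacked Xist reads, a fit added after the data had been seen. Genes called higher numbered 282 to 696 and 315 in the same fits. With total-count scaling 465 were called higher and 719 lower, against 539 and 628 in the reported fit. The replicate block gave 1138 calls. Deviations from the group means had correlations of 0.14, 0.10 and -0.05 between pools with the same number. Between pools with different numbers they ran from -0.23 to 0.16. With 3 pools per group these values cannot decide whether pools with the same number shared a litter or day, and the labels do not say.

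Secretory pathway genes called higher numbered 1 to 2 without 1 library, 2 with no filter on low counts, 3 with DESeq2 and 2 with robust estimation, and those called lower 3 to 9 without 1 library. Digestive enzymes called higher numbered 5 to 10 without 1 library and 2 with robust estimation. Those called lower numbered 0 to 2 without 1 library, with 0 by limma voom and 0 without both Xist-poor pools. In the reported edgeR fit over all pools, 2 of them were lower at an unadjusted p under 0.05. Of all 14687 genes tested, 3104 were under it in either direction. Acinar transcription factors called higher numbered 0 to 2, with 2 by DESeq2 and 2 without both Xist-poor pools, and those called lower 0 to 3, with 0 under robust estimation. Log2 differences near 0 that were never called changed sign: Kif22 was 0.0031 with no filter on low counts and -0.017 to 0.0089 without 1 library, Samd4b -0.033 to 0.11 and Vamp8 -0.085 to 0.017 without 1 library, and without both Xist-poor pools Vamp8 was 0.034 and Stx3 0.012. The cause of these shifts was not tested. Control reads of Gp2, Rnase1, Dmbt1 and Zg16 were too few to fix the size of a fold change.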
